A study of Mus musculus with 8 samples.

Results

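The fused S100 genes are Flg, Flg2, Hrnr, Rptn, Tchh, Tchhl1 and Crnn, 7 neighbours at one end of the epidermal differentiation complex, and they were examined in newborn mouse epidermis with and without the PRC2 subunit Eed. They were found on the arrays through the RefSeq accession that the array design gives each probe. Of the 7, 6 had a probe, 1 each, among 36799 genes and other targets. Probe sequences were not at hand, so binding of a probe to RNA of a related gene could not be checked. No probe carried an accession that matched Flg, the filaggrin gene itself, so Flg was not analysed here. Tchhl1 was too dim to be tested, which left 5 genes among the 23202 genes and other targets tested.

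Each fused S100 gene encodes a protein with an S100-type calcium-binding domain at its start, in most of them followed by a long run of repeats. Filaggrin and filaggrin-2 are made in the granular layer as large precursors that are cut into repeats, bind and compact keratin filaments and are later broken down to amino acids that hold water in the cornified layer. Hornerin and repetin are late proteins of the cornified cell, trichohyalin hardens the inner root sheath and medulla of the hair follicle, trichohyalin-like 1 is its close relative, and cornulin is best known from the upper layers of stratified squamous epithelium such as the esophagus. PRC2 is the Polycomb complex that methylates histone H3 at lysine 27, a mark of repressed genes.

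RNA came from the back skin epidermis of newborn (P0) C57BL/6 mice, 4 EED cKO and 4 controls, which the labels give as biological replicates. In EED cKO mice K14-Cre, active in keratin 14 cells of the embryonic epidermis and in all that descends from them, deletes Eed floxed on both alleles. The labels call the other group control and do not give its alleles. The epidermis was lifted off with dispase and dissociated with trypsin, so that interfollicular epidermis, upper hair follicles and the other cells of the sheet were measured together, and more cells of a type could not be told apart from more RNA per cell. Each array paired 1 sample with Universal Mouse Reference RNA, a commercial mix. In both genotypes the epidermal RNA was labeled with Cy3 for replicates 1 and 3, and with Cy5 for replicates 2 and 4. Levels are given as the log2 ratio of sample over reference after background correction, loess and turning of the swapped arrays, so that 1 unit is a 2-fold difference. They were compared within each gene only.

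The labels and the tissue were checked first. Eed had a mean log2 ratio of −0.35 in control and −1.80 in EED cKO epidermis (log2 fold change −1.46, SE 0.09, limma adjusted p = 2.11e-05). Keratinocyte markers were above the reference RNA in both genotypes and none passed the test, with a log2 fold change of 0.11 for Krt1, 0.14 for Krt10, 0.06 for Krt5, 0.11 for Krt14, 0.10 for Lor and 0.34 for Ivl. With the sample channel alone in place of the ratio the 4 keratins turned negative, from −0.0321 for Krt1 to −0.23 for Krt14, and Krt14 alone of them passed (limma adjusted p = 0.034). Between 50.5% and 64.5% of probes were well above background per array, and all arrays lay on 1 slide with a genotype in each row, so slide row and genotype cannot be told apart. Control replicate 1 was often the lowest control for the fused S100 genes, though not for Crnn. It was the lowest control in 4 of the 5 tested, in 24 of 57 tested genes of the whole complex (42.1%) and in 30.8% of all genes and targets, and values of the fused S100 genes without it are given where it moves them. Without it Ivl was at 0.0245.

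The bases before the start of the 5 tested genes are given as a description. They are the 150 bases before the RefSeq start on the plus strand of chromosome 3 (GRCm38.p6). Every TATAAA, a form of the TATA box, and every TGANTCA is in capitals. Other forms of the TATA box were not searched for, so a stretch without TATAAA can still hold one. TGANTCA is the consensus AP-1 site with its middle base left open, and no stretch marked here has the consensus middle base, C or G.
Crnn (chr3:93144639-93144788): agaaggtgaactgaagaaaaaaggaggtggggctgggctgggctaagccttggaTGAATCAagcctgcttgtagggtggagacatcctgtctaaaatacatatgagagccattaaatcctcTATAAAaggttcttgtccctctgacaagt
Flg2 (chr3:93197123-93197272): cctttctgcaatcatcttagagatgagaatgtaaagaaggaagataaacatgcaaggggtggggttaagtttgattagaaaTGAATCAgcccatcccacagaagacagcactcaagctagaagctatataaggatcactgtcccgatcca
Hrnr (chr3:93319599-93319748): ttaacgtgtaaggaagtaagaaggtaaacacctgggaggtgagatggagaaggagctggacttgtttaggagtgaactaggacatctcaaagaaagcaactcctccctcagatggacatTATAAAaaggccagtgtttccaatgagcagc
Rptn (chr3:93393549-93393698): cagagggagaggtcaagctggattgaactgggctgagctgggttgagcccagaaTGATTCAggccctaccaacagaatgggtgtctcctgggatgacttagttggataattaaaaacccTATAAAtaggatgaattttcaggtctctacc
Tchh (chr3:93442180-93442329): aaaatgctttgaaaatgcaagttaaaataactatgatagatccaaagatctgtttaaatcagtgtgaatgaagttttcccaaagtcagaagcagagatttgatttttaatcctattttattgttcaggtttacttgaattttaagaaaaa

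Over the 250 bases before the start, searched on both strands, TATAAA was found in 4 of the 7 genes and in 12.4% of 32851 mouse promoters. It lay 29 bases before the start of Crnn, 31 before those of Hrnr and Rptn, and 53 before that of Flg. TGANTCA was found in 5 of the 7 and in 6.75% of all promoters, 96 bases before the start of Crnn and of Rptn, 69 before Flg2, 103 before Flg and 87 before Tchhl1. All 5 matches read TGAATCA or its reverse complement, letters held by 2.43% of promoters, while TGACTCA, the consensus AP-1 site on either strand, was in 4.46% of promoters and in 0 of the 7. These finer motifs were chosen after the sequences were seen. CACCC, of the kind KLF factors bind, was in 5 of the 7 and in 52.0% of all promoters. Among the tested genes, TGANTCA was held by Crnn and Rptn, called higher, and by Flg2, not called. Hrnr and Tchh held none in this window and were called higher. TATAAA was held by Crnn, Hrnr and Rptn, and neither by Tchh, also called higher, nor by Flg2. The part of these letters in the changes was not tested. The 7 genes are of 1 family, so their promoters are not independent of each other, and the counts were not tested against the shares. Of the 6 genes for AP-1 subunits that were tested, Fos (log2 fold change 0.47, SE 0.14) and Fosl1 (0.38, SE 0.10) were higher and Fosl2 (−0.96, SE 0.12) was lower at a limma adjusted p below 0.05. Fos and Fosl1 are named here outside the rule for named genes.

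Crnn and Rptn rose most in EED cKO epidermis, 2.68-fold and 2.79-fold, Tchh and Hrnr rose less, and Flg2 did not pass the test. At a limma adjusted p below 0.05, 4 of the 5 tested genes were higher and 0 were lower, where 11.8% of all genes and targets tested were called higher and 9.93% lower. Rptn and Crnn were also at least 2-fold higher, as were 1.11% of all. For Crnn, Rptn and Tchh the lowest EED cKO array was higher than the highest control array, as for 9.69% of all, and the groups overlapped for Flg2 and Hrnr. The median log2 fold change was 0.94 over the 5 genes, which is the value of Tchh, and 0.02 over all genes and targets tested.

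**Figure D1:**
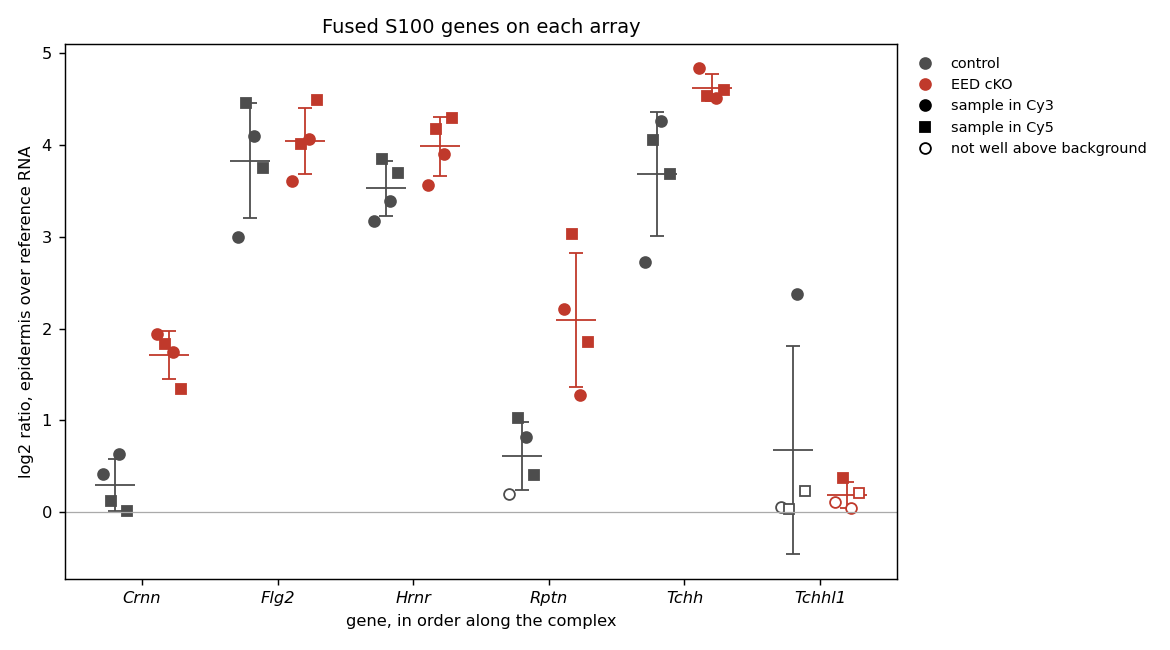
Log2 ratio of epidermis over reference RNA for the 6 genes with a probe, 1 point per array (control grey, EED cKO red, circles for samples in Cy3 and squares in Cy5, open where the sample was not well above background), with the mean and SD of 4 arrays. Crnn, Rptn and Tchh show all red points above all grey points, and Tchhl1 shows 1 control array at 2.37 above 7 others near 0.

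Crnn encodes cornulin. Its log2 ratios were 1.94, 1.84, 1.75 and 1.34 on EED cKO arrays 1 to 4 and 0.41, 0.12, 0.63 and 0.02 on the control arrays. Every EED cKO array thus stood clear of the highest control array, and the control epidermis lay close to the reference RNA. The means were 1.72 ± 0.26 and 0.29 ± 0.28 (SD, n = 4), a log2 fold change of 1.42 (SE 0.12, 95% confidence interval 1.16 to 1.68, limma adjusted p = 0.000119). The difference was 1.32 among the Cy3 samples and 1.52 among the Cy5 samples, and it ran from 1.12 to 1.72 between arrays of the same number. The probe was well above background in all 8 samples and on 6 arrays in the reference channel. The size of the change depended on the processing, at 3.55-fold with no background correction, 4.20-fold with a normexp offset of 10 and 5.70-fold with the Feature Extraction log ratio, which also differs in dye normalization.

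Rptn, the gene for repetin, was at 2.21, 3.04, 1.28 and 1.85 on the EED cKO arrays and at 0.20, 1.02, 0.82 and 0.41 on the control arrays. Its lowest EED cKO array (replicate 3) was only a little above its highest control array (replicate 2). The means were 2.09 ± 0.74 and 0.61 ± 0.38 (SD, n = 4), a log2 fold change of 1.48 (SE 0.30, 95% confidence interval 0.81 to 2.15, limma adjusted p = 0.00868). The SD among EED cKO arrays was the widest of the 5 genes tested. The difference between arrays of the same number was 2.01, 2.01, 0.46 and 1.44. Repetin was well above background in all 4 EED cKO samples and in 3 control samples, with control replicate 1 as the exception, and in the reference channel on 0 arrays, so its ratio is one to background. With the Feature Extraction log ratio the change was 5.22-fold, against 2.79-fold here.

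Tchh encodes trichohyalin. Its log2 ratios were tightly grouped on the EED cKO arrays, at 4.84, 4.53, 4.52 and 4.60, and ran lower and wider on the control arrays, at 2.73, 4.06, 4.26 and 3.68. Control replicate 1 was the lowest by far, and control replicate 3 came nearest to the EED cKO arrays. The means were 4.62 ± 0.15 and 3.68 ± 0.68 (SD, n = 4), a log2 fold change of 0.94 (SE 0.28, 95% confidence interval 0.32 to 1.56, 1.92-fold, limma adjusted p = 0.0392). Without control replicate 1 the log2 fold change was 0.58 (limma adjusted p = 0.0128), and leaving out any 1 of 6 other arrays took the adjusted p above 0.05, up to 0.102. The difference was 1.18 in Cy3 and 0.69 in Cy5.

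Trichohyalin belongs to the hair follicle, and genes of the inner root sheath and medulla were read beside it. Of 11 tested, 4 were higher and 1 was lower in EED cKO epidermis, with a median log2 fold change of 0.21. Over all genes and targets tested, 11.8% were higher and 9.93% lower. The gene called lower was Gata3 (−0.52, SE 0.13, limma adjusted p = 0.0208), named outside the rule for named genes. Krt27, an inner root sheath keratin, was at 2.54, 3.20, 2.50 and 3.18 in EED cKO and at 1.36, 1.28, 2.87 and 0.59 in control epidermis (log2 fold change 1.33, SE 0.41, limma adjusted p = 0.044). Krt72, from the same layer, rose by 0.93 (SE 0.22, limma adjusted p = 0.0159), and Trps1, a transcription factor of the follicle, by 1.04 (SE 0.11, limma adjusted p = 0.000546). Of the other keratins of the list that were tested, Krt71 was at −0.75, Krt28 at −0.26 and Krt73 at 0.21, and none passed the test. Krt27 lost its call in 15 of 26 alternatives (adjusted p up to 0.189). Control replicate 1, the lowest control for Tchh, was also the lowest control for Krt28 (0.30), Krt71 (0.70) and Krt73 (0.20), whereas for Krt27 and Krt72 it was control replicate 4. The mean log2 ratio of the list ran from 0.88 to 1.11 on the EED cKO arrays and from 0.51 to 1.07 on the control arrays, and its part in the rise of Tchh was not tested.

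Hrnr, the gene for hornerin, was at 3.57, 4.17, 3.90 and 4.30 on the EED cKO arrays and at 3.18, 3.85, 3.39 and 3.70 on the control arrays. The groups overlapped, but the samples in Cy5 ran above those in Cy3 in both, and within each dye the EED cKO arrays were higher. The means were 3.98 ± 0.32 and 3.53 ± 0.30 (SD, n = 4), a log2 fold change of 0.46 (SE 0.09, 95% confidence interval 0.25 to 0.67, 1.37-fold, limma adjusted p = 0.00903). The difference was 0.45 in Cy3 and 0.46 in Cy5, and 0.32 to 0.60 between arrays of the same number. Without the dye in the fit the limma adjusted p was 0.145. The reference channel, which holds the same RNA on every array, was itself 0.34 higher on the EED cKO arrays for this probe (SE 0.13, limma adjusted p = 0.507), and the sample channel alone gave a log2 fold change of 0.80. With the Feature Extraction log ratio the change was 0.27 (limma adjusted p = 0.23).

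Flg2, the gene for filaggrin-2, was at 3.61, 4.01, 4.07 and 4.49 on the EED cKO arrays and at 2.99, 4.46, 4.10 and 3.75 on the control arrays. The groups overlapped over most of their range, and EED cKO was higher in 2 of the 4 pairs of the same number. The means were 4.04 ± 0.36 and 3.83 ± 0.63 (SD, n = 4), a log2 fold change of 0.22 (SE 0.25, limma adjusted p = 0.574). The 95% confidence interval, −0.34 to 0.77, covers a small fall and a rise of the size seen for Hrnr. Without control replicate 1 the log2 fold change was −0.02. The probe was well above background in both channels of all 8 arrays, and the control arrays varied more than the EED cKO arrays.

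Tchhl1, the gene for trichohyalin-like 1, was near background in both genotypes. Its log2 ratios were 0.11, 0.38, 0.05 and 0.21 on the EED cKO arrays and 0.06, 0.03, 2.37 and 0.23 on the control arrays, and the probe was well above background only in EED cKO replicate 2 and control replicate 3. Control replicate 3 alone carried a clear signal. Fitted without the filter on dim probes, the log2 fold change was −0.49 (SE 0.45, limma adjusted p = 0.607). Only 1 other gene or target was well above background on that array and more than 1.5 above every other array, Krt71, an inner root sheath keratin at 3.80 against 1.47 on the next highest array. Tchh itself, at 4.26, was the highest of the controls there and below all EED cKO arrays. Krt71 did not pass the test between genotypes (log2 fold change −0.75, SE 0.56, limma adjusted p = 0.375).

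**Figure D2:**
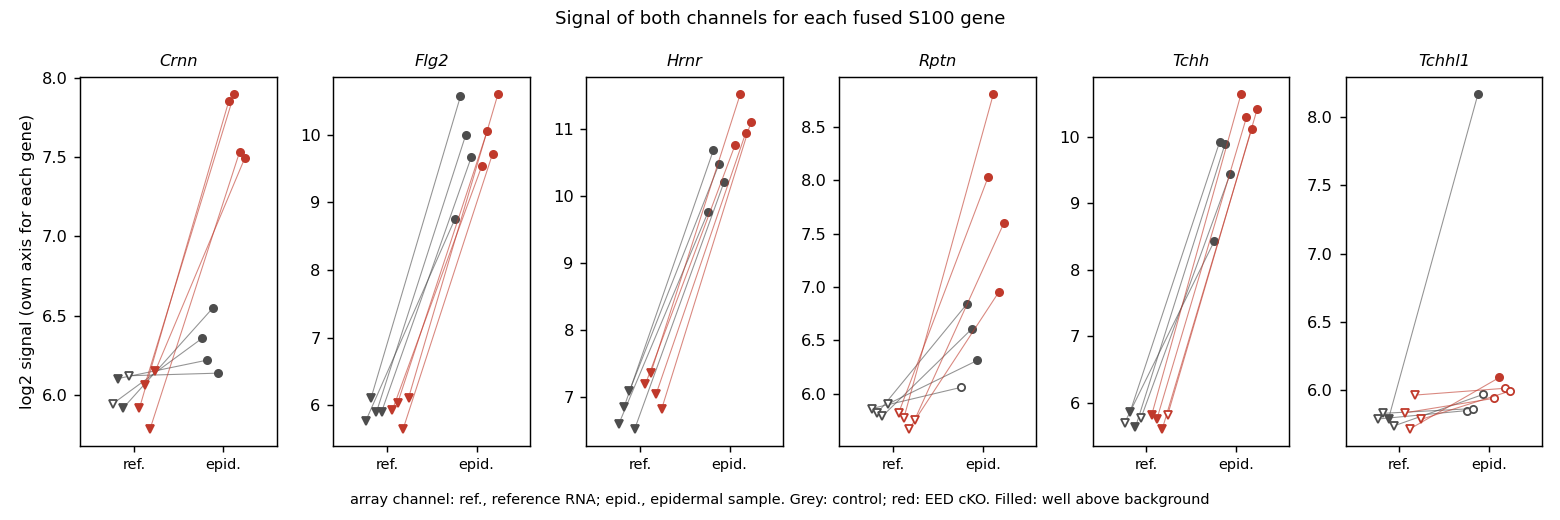
Log2 signal of the reference RNA and of the epidermal sample on each array after normalization, with an own vertical axis for each gene. Lines join the channels of an array, and filled marks were well above background. For Crnn and Rptn the sample signal separates the genotypes over a dim reference signal, while for Hrnr the reference signal is on average higher on the EED cKO arrays as well.

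The reference channel holds the same RNA on every array, and its difference between genotypes was read for each tested gene. Between EED cKO and control arrays it differed by 0.02 for Flg2, −0.09 for Rptn, 0.01 for Tchh and −0.04 for Crnn on the log2 scale, each with a limma adjusted p of 0.616 or above. Hrnr, above, was the exception in size. In the sample channel alone the log2 fold changes were 1.38 for Crnn, 1.39 for Rptn, 0.95 for Tchh and 0.23 for Flg2, close to those of the ratios. The mean reference signals of these genes were 5.74 to 6.02, near the floor set by the offset of 50, against 6.76 and 7.10 for Hrnr. Small reference differences and sample channels close to the ratios were thus largely fixed in advance, and are no check on the changes.

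The genes did not vary as 1 block across arrays. With the mean of each dye removed, the correlation over the 8 arrays was 0.94 between Rptn and Crnn, 0.86 between Hrnr and Crnn, 0.78 between Hrnr and Tchh, and 0.77 between Tchh and both Rptn and Crnn. Flg2 followed Tchh (0.70) and Hrnr (0.61) more than Rptn (0.25) or Crnn (0.27). These correlations share the difference between genotypes and are a description over 8 arrays. Across the array, the genes most like Crnn were Slc16a11, Tmem45b, Pgm5, Fndc5 and Hoxd9 (r from 0.997 to 0.994), and those most like Rptn were Prss51, Cyp2c38, Gm2a, Atp6v0e2 and Ces2g (0.986 to 0.982). For Hrnr they were Clic3, Scx, Flot2, Mill1 and Slc25a45 (0.991 to 0.979), for Tchh Ppp1r15a, Abcf3, Snapc5, Elmo3 and Rhbdl2 (0.996 to 0.959), and for Flg2 Cyp2j13, Gtpbp2, Tasor, Cdadc1 and Neat1 (0.956 to 0.944). No gene of the epidermal differentiation complex was among them. Hoxd9 (log2 fold change 2.03) and Tmem45b (2.47) rose further than Crnn, whereas none of the 5 genes most like Flg2 passed the test.

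Within the complex, the fused S100 genes lay between the late cornified envelope genes and S100a11. Of 52 other genes of the complex that were tested, 26 were higher and 0 lower at a limma adjusted p below 0.05, 12 of them at least 2-fold, with a median log2 fold change of 0.34. The median over the fused S100 genes was 0.94, the value of Tchh. It compares with 0.78 over 9 Sprr genes, 0.30 over 20 Lce genes and 0.25 over 13 S100 genes. The Sprr genes include Sprr2g and Sprr2j-ps, annotated as transcribed pseudogenes, and the Lce genes ran from −0.13 to 3.19. Without control replicate 1 the fused S100 genes were at 1.41 for Rptn, 1.40 for Crnn, 0.58 for Tchh, 0.42 for Hrnr and −0.02 for Flg2. The largest rises of the complex were outside the family, in Lce3f (log2 fold change 3.19), Sprr2g (2.32) and Lce3d (2.05). Lce3f was well above background in 2 control samples, and so passed the filter only through the EED cKO samples. The tested genes nearest to Crnn on the side of the Lce genes, Tdpoz8 at 0.19 and Lce1m and Crct1 at 0.21, did not pass the test (limma adjusted p = 0.101, 0.139 and 0.182), nor did S100a11, the next gene tested beyond Tchh, at −0.06. Whether the fused S100 genes differ from their neighbours was not tested.

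**Figure D3:**
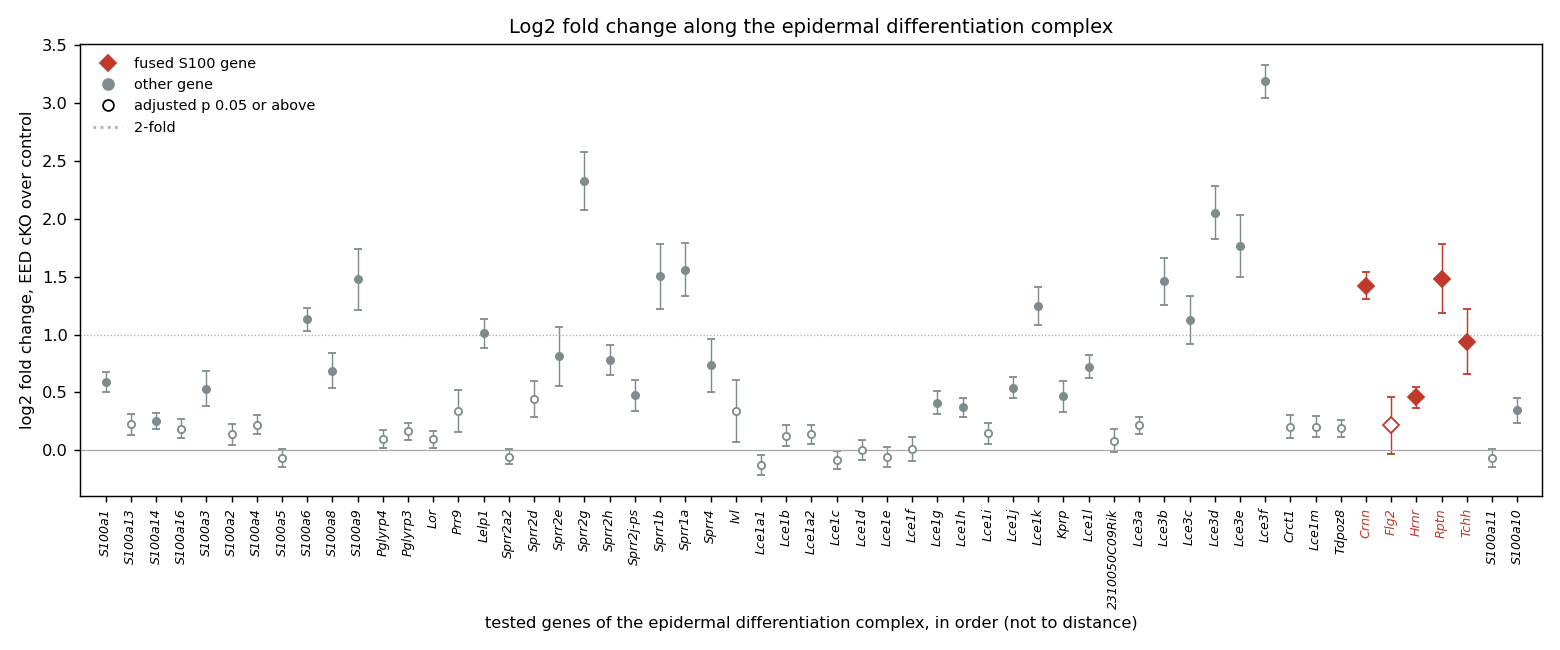
Log2 fold change (EED cKO over control) with its SE for the 57 tested genes of the epidermal differentiation complex in their order on the chromosome, not to distance. Red diamonds are the fused S100 genes, filled marks have a limma adjusted p below 0.05, and the dotted line is 2-fold. Crnn and Rptn lie above it, Tchh just below, and Flg2 near 0.22.

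Filaggrin is processed by proteases and deiminases, held in check by inhibitors. Of 16 tested genes listed for such roles, 5 were higher and 0 lower in EED cKO epidermis, where 11.8% of all genes and targets were higher. The median log2 fold change of the 16 was 0.29 against 0.02 over all. The largest rises among the called genes were in Padi4, a peptidylarginine deiminase (0.80, SE 0.11, limma adjusted p = 0.00149), Spink5, the inhibitor that holds back the kallikreins of the upper layers (0.58, SE 0.15, limma adjusted p = 0.0263, call lost in 13 of 26 alternatives), and Ctsh, a cathepsin (0.41, SE 0.10, limma adjusted p = 0.0188). Casp14, a protease needed for the final breakdown of filaggrin, and Asprv1, which cuts its linkers, were at 0.11 and 0.20 and did not pass the test. Of the other deiminases of the list, Padi3 was at 0.35 (limma adjusted p = 0.0356) and Padi1 at 0.06 (limma adjusted p = 0.626). With the median over its probes Padi4 was at 0.47, and whether it acts on filaggrin in this epidermis was not tested. Casp14, Asprv1, Padi3 and Padi1 are named for their role, outside the rule for named genes.

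Other layers of the epidermis gave the setting. Among 16 cornified envelope genes 2 were higher, Cnfn (0.60) and Tgm1 (0.41), and 1 was lower, Csta1 (−0.55), shares near those of all genes and targets. Tgm1 lost its call in 14 of 26 alternatives, without control replicate 1 among them (0.30, limma adjusted p = 0.0919), and Csta1 lost its call in 16. Among suprabasal keratins, Krt2 rose by 1.00 (SE 0.12, limma adjusted p = 0.00104) and Krt77 by 0.47 (SE 0.13, limma adjusted p = 0.032). Of 12 basal epidermis genes 0 were higher and 7 lower, with Itga6 at −0.74, Lama3 at −0.67 and Trp63 at −0.59, though Lama3 was at −0.0132 with the Feature Extraction log ratio (limma adjusted p = 0.97). Of 29 regulators of late differentiation 4 were higher and 8 lower, and Fosl2 (−0.96) and Klf4 (−0.70) were among those that fell. The stress keratins Krt6b and Krt6a rose by 3.39 and 2.73 and Krt16 by 0.50. Of 6 genes of non-cornified stratified epithelium, where cornulin is also made, 2 were higher, Mal (0.56) and Krt76 (0.36), and Krt76 was well above background in 0 control samples. Krt13, a keratin of that epithelium, was at 0.05 and did not pass the test.

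Markers of other cells in the sheet were read over whole lists. All 6 Merkel cell genes tested were higher, Krt20 by 1.12, and their mean log2 ratio ran from −0.95 to −0.82 on EED cKO arrays and from −1.67 to −1.53 on control arrays. Some of the 6 were well above background in only 0 or 2 control samples, and so passed the filter only through the EED cKO samples. Of immune cell genes 2 of 7 were higher, and of endothelial genes 2 of 3, Pecam1 (0.89) and Kdr (0.62). Of adipocyte genes 2 of 3 were higher, Fabp4 (1.17) and Lep (0.23), and of dermal fibroblast genes 1 of 8 was higher and 1 lower. Over all genes and targets tested, 11.8% were higher and 9.93% lower. The call was lost in 14 of 26 alternatives for Fabp4 and 12 for Lep, and in 1 for Pecam1 and 2 for Kdr. No gene passed the test among 5 of skeletal muscle, 7 of melanocytes, 4 of Schwann cells and neurons, and 3 of erythroid cells. Pecam1, Kdr and Fabp4 were well above background in all 8 samples, and Adipoq, Cdh5, Tek and Nefl in 0. The part of these cells in the values of the fused S100 genes was not tested.

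**Figure D4:**
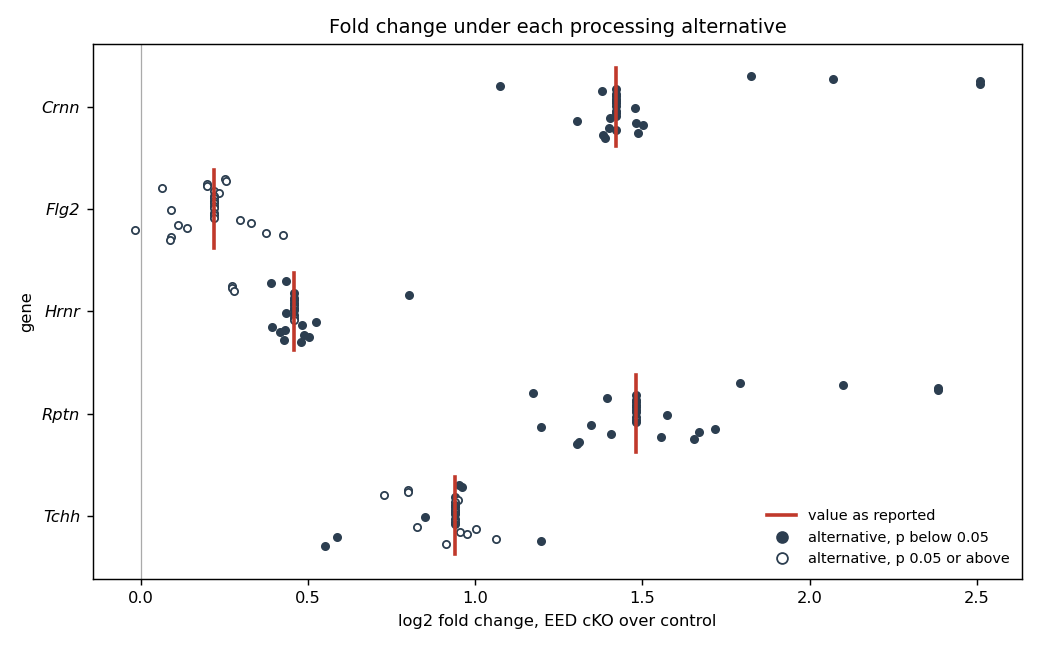
Log2 fold change of the 5 tested genes in the reported fit (red line) and under each of 26 alternatives of processing and test (points, filled where the adjusted p, or the unadjusted p of the methods' t-test, was below 0.05). Crnn stays filled throughout, Rptn has 1 open point, Hrnr and Tchh have several, and Flg2 is open throughout.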

How the data were processed

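Per the labels and the study's methods, 100 ng of total RNA per sample was amplified, labeled and hybridized to Agilent mouse 8X60K arrays. The authors extracted the arrays with Agilent Feature Extraction 12.0.1.1 and deposited the spot intensity and local background intensity of each channel, not normalized, with a log10 ratio of Cy5 over Cy3 in which the software had already subtracted background and normalized the dyes. Their deposited table of log2 ratios matched the turned Feature Extraction ratios (correlation 0.9974 to 0.9994 per array, medians 0.03 to 0.14) and was not centred on 0.

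Here the median spot intensities were corrected with normexp (offset 50), which draws dim ratios toward 0, loess was run within each array, swapped arrays were turned, and spots of a probe were averaged. Of 29796 probes named by a RefSeq accession, 28026 matched a symbol of GRCm38.p6. A gene was represented by its brightest probe, which had to be well above background in at least 3 of 4 samples of a genotype. The group mean stood in for 19 missing values. The model was fitted in limma 3.58.1 under R 4.3.3 with genotype and dye as terms, and p-values were adjusted by Benjamini-Hochberg over all 23202 features. The number of arrays limits the precision. The procedure was tested on simulated data.

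Same-numbered arrays deviated together (correlations 0.489, 0.679, 0.327 and 0.362, and 0.126 and 0.454 with the dye removed). The meaning of the number is not given in the labels, and it also marks the dye. It was used as a replicate block in an alternative. The fused S100 genes, the gene lists and the tests were chosen with earlier results of these data known. Named genes were the members, the tissue checks, the 5 genes most correlated with each member, and from each list the genes called with at least a 2-fold change and up to 3 called genes of largest change. Further genes are marked as outside this rule or were named for their role or their place beside a member. Other cell types and the complex are given mainly as counts, and a gene that this rule names is not reported here. Nothing is said of gene positions on the array design, which was annotated on an older build.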

Additional observations from a re-analysis of the deposited data

Results flagged for a closer look

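In a group of 4 samples, 1 array was taken to stand apart where its distance to the nearest other array divided by the whole range of the group, exceeded Dixon's 95% critical value. Of 116 groups of 4 arrays examined, 4 met this, and chance flags about 1 in 20 groups. Among the fused S100 genes it was Tchhl1, at a log2 ratio of 2.37 in control replicate 3. Among the other named genes they were Itga6 at 0.46 in EED cKO replicate 4, Lama3 at 4.89 in control replicate 1, and Krt76 at −0.25 in control replicate 3. No cause was tested for any of them.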

How the results depend on the processing

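Of 26 alternatives, 25 were planned and 1, leaving out both arrays numbered 1, was chosen after seeing the data. Crnn kept its direction and its call under all 26 (log2 fold change 1.07 to 2.51, adjusted p from 7.32e-05 to 0.0248). The replicate block changed no call of a fused S100 gene, with a limma adjusted p of 0.000307 for Crnn, 0.00467 for Rptn, 0.00472 for Hrnr, 0.0355 for Tchh and 0.426 for Flg2. The methods' t-test after Benjamini-Hochberg left 1 fused S100 gene higher, and 1 at least 2-fold higher, with its log2 fold changes unchanged at 1.48 for Rptn, 0.46 for Hrnr and 0.94 for Tchh (adjusted p = 0.101, 0.271 and 0.172), and unadjusted it did not call Hrnr at 0.46 (p = 0.0843, methods' t-test, not exact). The ratios of Feature Extraction and those of the deposited table left 2 called, with 0.27 for Hrnr and 0.80 for Tchh, as did median centring (0.28 and 0.73) and the fit without a dye term (0.46 and 0.94). Tchh also lost its call in the sample channel alone (0.95, limma adjusted p = 0.0517) and without the filter on dim probes (0.94, limma adjusted p = 0.0664). Leaving out 1 array at a time gave 0.58 to 1.20 for Tchh and −0.02 to 0.42 for Flg2. Flg2 turned negative, at −0.0184, without control replicate 1. In the sample channel alone Krt1 was at −0.0321, Krt10 at −0.18, Krt5 at −0.0863 and Krt14 at −0.23. Over all genes, 2749 were higher and 2303 lower (54.4% higher), against 1026 and 1539 under median centring (40% higher), 1354 and 1018 without a dye term, and 599 and 322 by the t-test after adjustment. Of the other genes of the complex 7 to 35 were higher and 0 lower. Aquantile leaves the ratios as they are. Where a call was lost, the cause was not tested. Dim probes set the limit for Crnn and Rptn in control epidermis, where signal lay close to background.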
